A study of Mus musculus with 27 samples.

Results

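The genes described here encode the proteins of the mitochondrial ribosome, named Mrpl for the large and Mrps for the small subunit. Their probes were taken by name: every non-control probe whose gene name on the array begins with Mrpl or Mrps and a digit. The array carried 102 such probes for 78 genes, out of 55681 probes in all, with 61 probes for 47 large subunit genes and 41 probes for 31 small subunit genes. A measurable value on at least 75% of the 27 arrays was required for testing, and 95 of the 102 probes (76 genes) met this requirement, as did 22169 probes of the whole array.

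Mitochondria carry their own ribosomes, which translate the few respiratory chain proteins that the mitochondrial genome encodes. All proteins of these ribosomes are encoded in the nucleus, made in the cytosol and imported, so that respiratory complexes depend on both genomes. Many of them descend from bacterial ribosomal proteins, while others were added in the mitochondrial lineage. In skeletal muscle, where contraction sets a high and varying demand for ATP, the number and activity of mitochondria differ between fiber types.

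Each array held amplified RNA of 1 myofiber from the tibialis anterior muscle of male mice, labelled as 3 months old. The WT group comprised 8 fibers from 2 mice, and the Smn1deltaSKM group comprised 12 fibers from 3 mice carrying HSA-Cre and Smn F7/F7 alleles, in which a Cre recombinase under the human skeletal actin promoter removes the floxed exon of Smn1 in muscle fibers. The Smn1deltaSKM+AFS group comprised 7 fibers from 2 mice of the same genotype that had received amniotic fluid stem cells (AFS; GFP+ c-kit+ mouse cells) through the tail vein. The study's methods place the transplant at 3 months of age and the killing of treated mice a month later. The treated mice may therefore have been older than their label and than the other groups, and age and treatment then cannot be told apart. The study's text describes this group with fewer fibers and more mice than the labels give, and the labels were followed here, so that the number of mice behind the treated values is uncertain. Genotype and treatment belong to the mouse, so the fibers were averaged within each mouse and the 7 mice were the replicates. Nothing in the arrays tells donor-derived from host RNA, and less RNA of a gene per fiber cannot be told apart from a change in all other RNA of that fiber.

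The scanned arrays gave between 23183 and 37595 probes with a value per fiber. All WT fibers shared 1 slide and 1 scan day with no other group, so slide, scan day and the WT genotype cannot be told apart, whereas Smn1deltaSKM and Smn1deltaSKM+AFS fibers shared 2 scan days. All 7 myofiber marker genes were detected on every array. Of their 8 probes 7 were below WT in Smn1deltaSKM and 2 were called lower, Ckm, the muscle creatine kinase, at -1.76 and Actn3, the fast fiber actinin, at -1.14 on the log2 scale. Mb, the oxygen-binding myoglobin, stood at 0.95 in Smn1deltaSKM (not called) and was called higher in Smn1deltaSKM+AFS against WT (2.33, adjusted p = 0.0266). Of the 2 Smn1 probes, 1 fell by 1.68 (adjusted p = 0.0201) and the other differed by 0.19 (adjusted p = 0.72), and their place relative to the floxed exon is not given in the sources used here. Of the markers of other cells, 2 of 7 tested macrophage and leukocyte probes were called higher in Smn1deltaSKM (Cd68 2.99, Ptprc 1.33) and 1 of 3 endothelial probes was called lower (Vwf -1.12), and none of the tested fibroblast, satellite cell, Schwann cell or red blood cell probes was called. The summed log2 level of the macrophage and leukocyte list ran from 7.64 to 8.30 in WT, 7.56 to 8.03 in Smn1deltaSKM and 7.86 to 8.30 in Smn1deltaSKM+AFS fibers. This sum rested mostly on 1 Itgam probe, with mouse means of 7.84, 7.70 and 7.95 in these groups, so it does not follow the dimmer markers. The other tested Itgam probes stood at -0.22 and -1.75 in WT. In the same order of groups the sum of the endothelial list ran from 3.05 to 4.74, 3.55 to 4.39 and 3.97 to 4.56. No gene of these lists was below background on every array. The median share of list genes detected was 40%, 80% and 80% for fibroblasts, 80%, 100% and 80% for macrophages and leukocytes, and 66.7% in each group for satellite cells. Of the 3 tested myosin heavy chain probes, the fast Myh1 was called higher both in Smn1deltaSKM (2.20, adjusted p = 0.0225) and in Smn1deltaSKM+AFS against WT (3.45, adjusted p = 0.0194), while the fast Myh4 (-0.42 and -0.47) and the slow Myh7 (-0.08 and 0.05) were called in neither. The part of these differences in the values below was not tested.

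The comparison of Smn1deltaSKM with WT asked what loss of Smn1 in the fiber does to these transcripts. Transcripts for mitochondrial ribosomal proteins of both subunits were lower in Smn1deltaSKM fibers. By limma on mouse means, 28 of the 95 tested probes (25 genes) passed an adjusted p of 0.05, and all 28 were lower. They made up 29.5% of the members, against 21.5% of all tested probes called in either direction and 14.1% called lower. The large subunit gave 14 called probes of 57 (24.6%, 13 genes) and the small subunit 14 of 38 (36.8%, 12 genes). Below WT, whether called or not, were 81 of the 95 probes, against 55.6% of all probes. The median difference was -0.57 for the large and -0.69 for the small subunit, against -0.14 over all tested probes, and the individual differences ran from -2.72 to 0.48.

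The mice did not overlap for many members. All 3 Smn1deltaSKM mice lay below both WT mice for 57 of the 95 probes (60%), against 33.9% of all probes, and this held for each of the 28 called probes. For 13 of the called probes (46.4%), every Smn1deltaSKM fiber with a value also lay below the lowest WT fiber, against 45.8% of all probes called lower. Over all tested probes these shares were 13.7% of the members and 7.16% of the array. The call count rested on few mice. It fell to 0 without either of the WT mice (0% of all probes called lower) and to 9 and 8 without the second and the third Smn1deltaSKM mouse (6.01% and 7.11% of all probes). It was 52 without the first Smn1deltaSKM mouse (25.8% of all probes), 3 of whose fibers were scanned on day 1. The share called over the whole array thus moved in the same direction as the count of members. In each of these fits all 28 probes stayed below WT, which follows from the mice not overlapping for these probes and adds no support. With fibers as replicates 53 members were called, all lower (32.5% of all probes lower), and 38 with the mouse as a random block (22.3%). A test needs spread within groups, and leaving out a WT mouse leaves that group with 1 mouse, whose spread is then taken from the other groups.

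Summarised by subunit, the fibers of the groups overlapped. The large subunit median of a fiber, taken over its probes relative to the mean of the WT mice, ran from -0.62 to 0.30 in WT with a median of 0.10, from -1.32 to -0.15 in Smn1deltaSKM with a median of -0.61, and from -0.57 to 0.22 in Smn1deltaSKM+AFS with a median of -0.44. The small subunit gave -0.59 to 0.20 in WT with a median of 0.09, -1.15 to -0.25 in Smn1deltaSKM with a median of -0.62, and -0.72 to 0.16 in Smn1deltaSKM+AFS with a median of -0.38. The overlap of WT with Smn1deltaSKM came from a single WT fiber, number 8, since the other WT fibers lay at -0.09 or above for the large and -0.07 or above for the small subunit. At the level of mice the 3 Smn1deltaSKM animals stood at -0.31, -0.74 and -0.85 for the large and at -0.71, -0.69 and -0.79 for the small subunit, and the 2 WT animals lay within 0.08 and 0.04 of their mean.

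**Figure D1:**
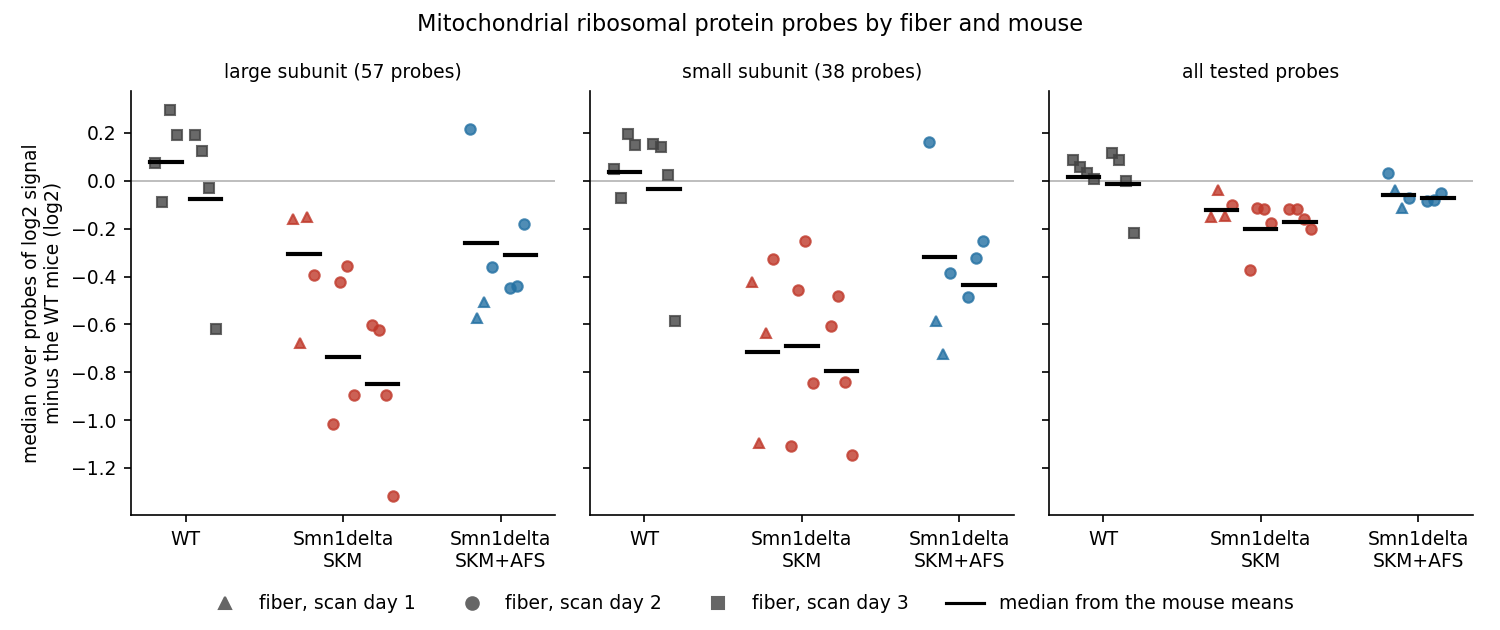
Median over the tested probes of each subunit, and over all tested probes, in every fiber (symbols, by scan day) and from the mouse means (bars), as log2 signal minus the mean of the WT mice. The 3 Smn1deltaSKM mice stand at -0.31, -0.74 and -0.85 for the large subunit and close together for the small one, WT fiber 8 lies far below the other WT fibers, and the medians of all probes move far less.

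WT fiber 8 was also the WT array with the most measurable probes, 34012, while the other WT arrays gave 23871 to 27329. Most Smn1deltaSKM arrays were likewise broad, with a group median of 31433.5 probes. The 3 Smn1deltaSKM fibers of scan day 1 gave 23183 to 27340 probes. Their small subunit medians ran from -1.10 to -0.42 and their large subunit medians from -0.68 to -0.15, the latter the highest of any Smn1deltaSKM fiber. The Smn1deltaSKM+AFS arrays gave 25887 to 30498. Among the treated arrays, fibers 2 and 3 (27337 and 27431 probes) had large subunit medians of -0.57 and -0.51, below those of fibers 5 to 7 (29166 to 30498 probes), at -0.45 to -0.18. Fiber 1, the narrowest treated array with 25887 probes, was the highest treated fiber, at 0.22 for the large and 0.16 for the small subunit. WT fiber 8 and most Smn1deltaSKM arrays were thus both broad and low, while Smn1deltaSKM fiber 2, the narrowest array of all with 23183 probes, was low as well, at -1.10 for the small subunit. The part of the number of measurable probes in the result was not tested. Without WT fiber 8 the number of called members was 36, all lower (17.2% of all probes lower), and without the 5 fibers of scan day 1 it was 30, all lower (18% of all probes).

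**Figure D2:**
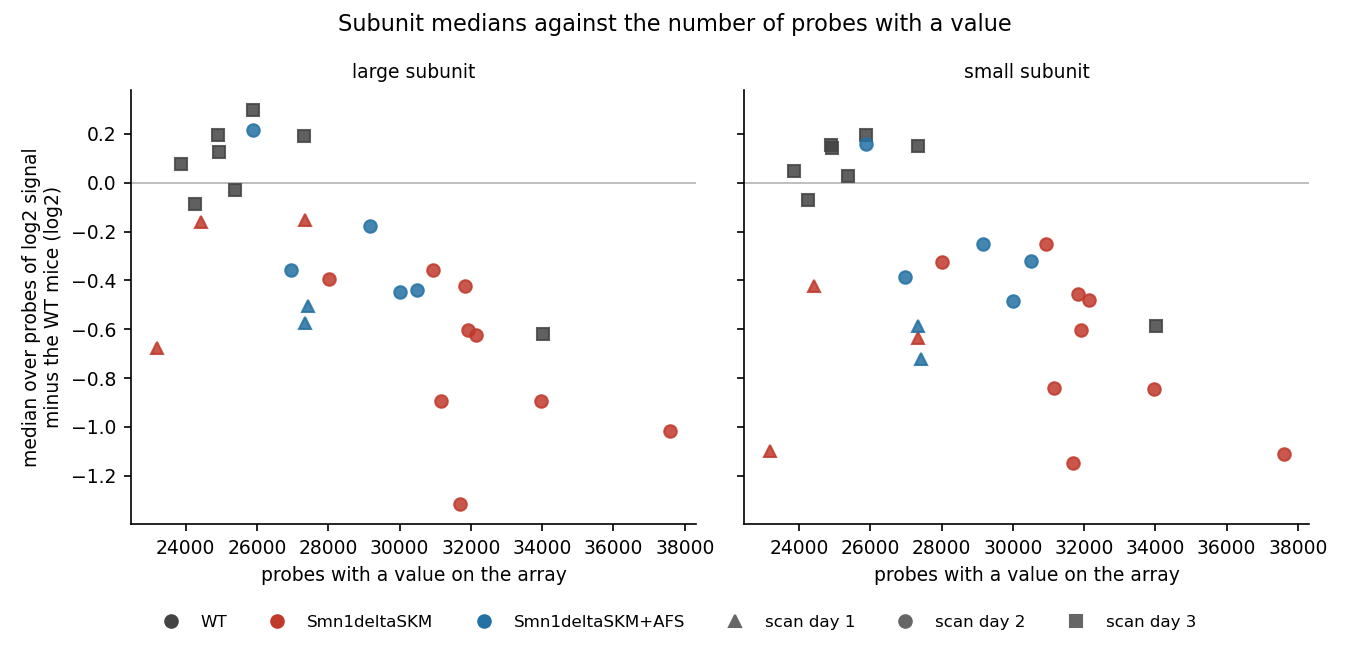
Subunit median of each fiber (vertical axis, log2 signal minus the WT mice) against the number of probes with a value on its array (horizontal axis), with colour for the group and symbol for the scan day. The WT fiber with 34012 probes lies among the Smn1deltaSKM fibers. The Smn1deltaSKM fibers of scan day 1, at 23183 to 27340 probes, lie at -1.10 to -0.42 for the small and at -0.68 to -0.15 for the large subunit.

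In the large subunit the farthest member was Mrpl38, a mitochondria-specific protein of the central protuberance. Its log2 signal relative to the array's 75th percentile ran from 1.42 to 2.77 in the 8 WT fibers with a median of 2.08, from -1.37 to 0.18 in the 11 Smn1deltaSKM fibers with a value (median -0.71), and from -0.74 to 0.61 in the 7 Smn1deltaSKM+AFS fibers (median 0.27). No Smn1deltaSKM or Smn1deltaSKM+AFS fiber reached the lowest WT fiber. Over mice the level was 2.06 ± 0.11 in WT (SD, n = 2) and -0.65 ± 0.45 in Smn1deltaSKM (SD, n = 3), a difference of -2.72 (SE 0.33, adjusted p = 0.00663).

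Mrpl37, a mitochondria-specific protein of the same subunit, ran from 1.67 to 3.30 in WT fibers with a median of 2.73 and from 0.16 to 1.51 in the 11 Smn1deltaSKM fibers with a value (median 0.88). Its groups did not overlap either, and the difference was -1.73 (SE 0.30, adjusted p = 0.0117). In the small subunit Mrps15, the homolog of the bacterial protein S15 that binds the small ribosomal RNA, ran from 3.73 to 5.06 in WT fibers with a median of 4.72 and from 0.35 to 3.29 in Smn1deltaSKM fibers with a median of 2.84. All 12 Smn1deltaSKM fibers lay below the lowest WT fiber, and the difference was -2.16 (SE 0.50, adjusted p = 0.0228). The first Smn1deltaSKM mouse, at 1.33, stood below the other two, at 3.00 and 2.99.

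The 60-base probes behind the Mrpl38 and Mrpl37 values, the farthest members of the large subunit, are shown because a probe reports only the stretch of transcript that it pairs with. They are given 5′ to 3′ in lower case with their mapped interval on mm9 in the array's annotation. The Mrpl38 probe maps without a gap, while the mapped interval of the Mrpl37 probe spans 1302 bases, so that it pairs with sequence on both sides of an intron and reports spliced transcript.
Mrpl38, chr11:115993268-115993327, minus strand: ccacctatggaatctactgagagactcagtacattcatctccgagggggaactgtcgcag
Mrpl37, chr4:106733238-106734539, minus strand: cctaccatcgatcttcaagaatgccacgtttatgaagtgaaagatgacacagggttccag

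Of the 14 member probes whose interval is longer than the probe itself, 5 were called lower and the median difference was -0.72. The 81 tested probes that map within 60 bases gave 23 called probes and a median of -0.64. The called shares were 35.7% and 28.4%, against 14.1% of all tested probes called lower. Both kinds of probe thus had medians below 0, as did all tested probes (-0.14).

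Further large subunit members past the threshold included homologs of bacterial proteins. Mrpl21 ran from 2.46 to 4.18 in WT fibers with a median of 3.38 and from 0.98 to 2.80 in Smn1deltaSKM fibers with a median of 1.82 (difference -1.52, SE 0.36). The WT fibers of Mrpl35 ran from -0.16 to 0.42 (median 0.30), and all 11 measured Smn1deltaSKM fibers lay below them, from -2.27 to -0.38 with a median of -1.33 (difference -1.47, SE 0.36). Within Smn1deltaSKM its first mouse stood at -0.58 and the others at -1.41 and -1.68.

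Mrpl16 fell by 1.25 (SE 0.26), with mice at 2.17, 2.47 and 2.29 against 3.67 and 3.44 in WT. Mrpl4, whose bacterial counterpart lines the tunnel through which the nascent chain leaves, fell on both of its probes, by 1.22 (SE 0.26) and 1.13 (SE 0.29). Mrpl45, which in mammals sits at the exit of that tunnel and anchors the ribosome to the inner membrane, fell by 1.20 (SE 0.34). Its Smn1deltaSKM mice stood at 1.57, 2.41 and 2.43 and its WT mice at 3.37 and 3.32. Mrpl43, a mitochondria-specific protein, fell by 1.38 (SE 0.38) on 1 probe, while its other probe gave -0.39 and was not called.

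In the small subunit Mrps24 ran from 1.66 to 2.84 in WT fibers with a median of 2.63 and from -0.11 to 1.50 in Smn1deltaSKM fibers with a median of 0.86, a difference of -1.80 (SE 0.33, adjusted p = 0.0132). The fibers of these groups did not overlap. Mrps17 and Mrps2, both homologs of bacterial proteins, were lower on each of their 2 probes: Mrps17 by -1.67 (SE 0.28) and -1.41 (SE 0.28), and Mrps2 by -1.53 (SE 0.29) and -1.22 (SE 0.37). On all 4 of these probes the 12 Smn1deltaSKM fibers lay below the lowest WT fiber.

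For the more distant Mrps2 probe the WT fibers ran from 1.97 to 2.69 (median 2.47), the Smn1deltaSKM fibers from 0.04 to 1.77 (median 1.03) and the Smn1deltaSKM+AFS fibers from 0.85 to 1.39 (median 1.12). The treated fibers lay within the range of the untreated ones and below every WT fiber. Mrps25, a mitochondria-specific small subunit protein, differed by -1.42 (SE 0.37) on a dim probe with values in 6 WT and 10 Smn1deltaSKM fibers, and by -0.52 on a probe with values in every fiber, which was not called.

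**Figure D3:**
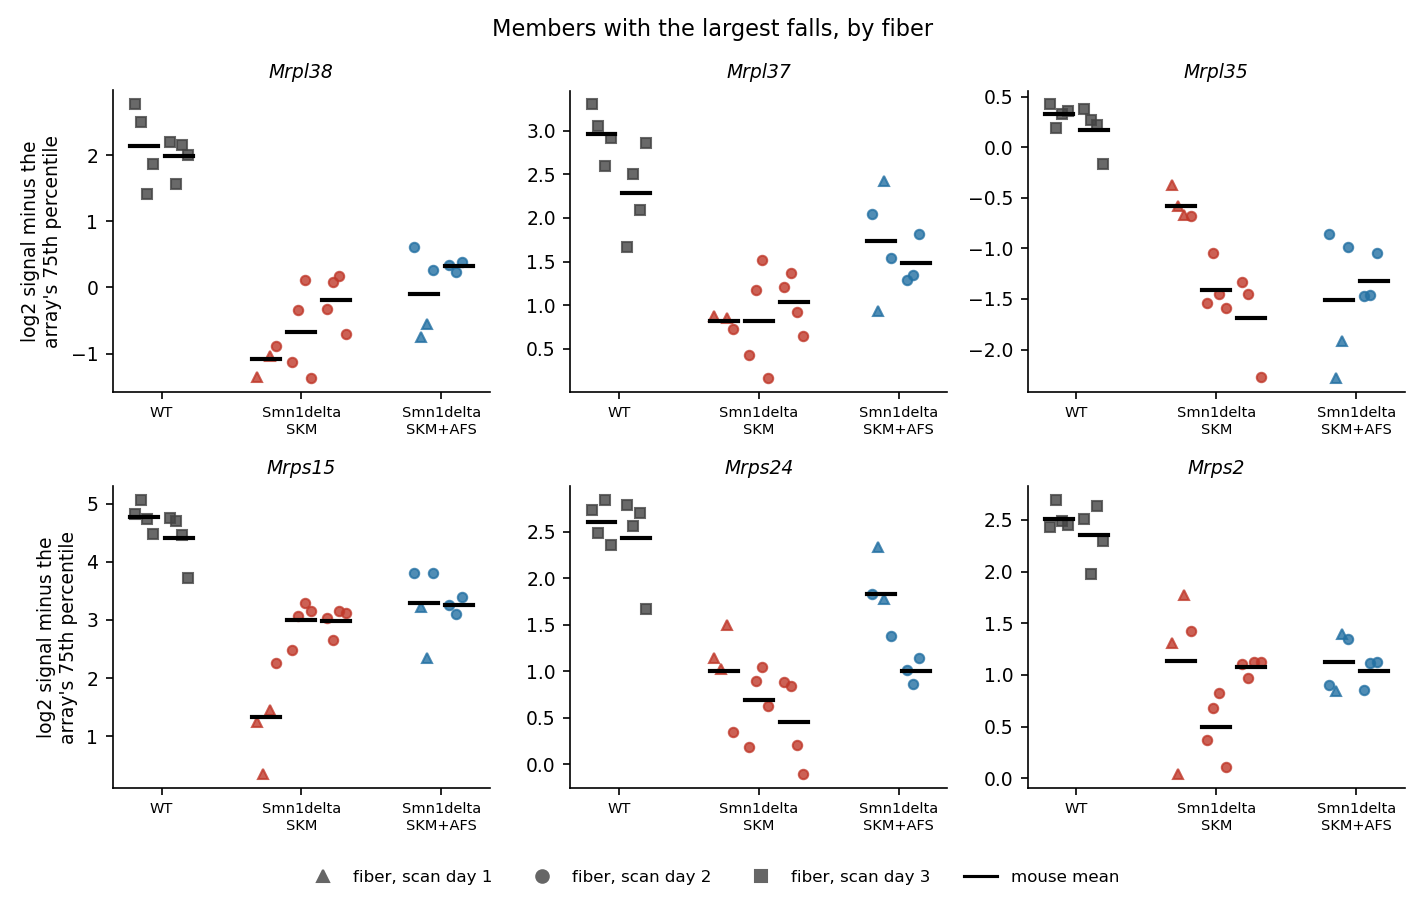
Log2 signal minus the array's 75th percentile for 6 of the members with the largest falls, in every fiber with a value (symbols, by scan day) and as the mean of each mouse (bars). In all 6 panels the Smn1deltaSKM fibers lie below the WT fibers, and the Smn1deltaSKM+AFS fibers of Mrpl38, Mrpl35 and Mrps2 lie below every WT fiber as well.

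Of the 18 genes with several tested probes, Mrps2, Mrps17 and Mrpl4 had every probe called, and Mrps18b, Mrpl40, Mrps25, Mrps36 and Mrpl43 had 1 probe called and the other not. No gene had a called probe and another probe more than 1 apart from it on the log2 scale. Mrps36, long counted as a small subunit protein and since recognised as a component of the alpha-ketoglutarate dehydrogenase complex, gave -1.16 (called) and -0.65. The probe annotated to its pseudogene Mrps36-ps2, which maps between the positions of these probes, gave -0.70, so that the transcripts behind these names cannot be told apart.

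No member was called higher in Smn1deltaSKM. The highest was Mrps5 at 0.48, followed by an Mrps23 probe at 0.40. Mrps5 fibers overlapped widely, from 1.18 to 2.47 in WT (median 1.98) and from 0.95 to 3.66 in Smn1deltaSKM (median 2.28). Mrpl46 and Mrps11 are neighbours on chromosome 7, and their differences were 0.18 (not called) and -0.89 (called).

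**Figure D4:**
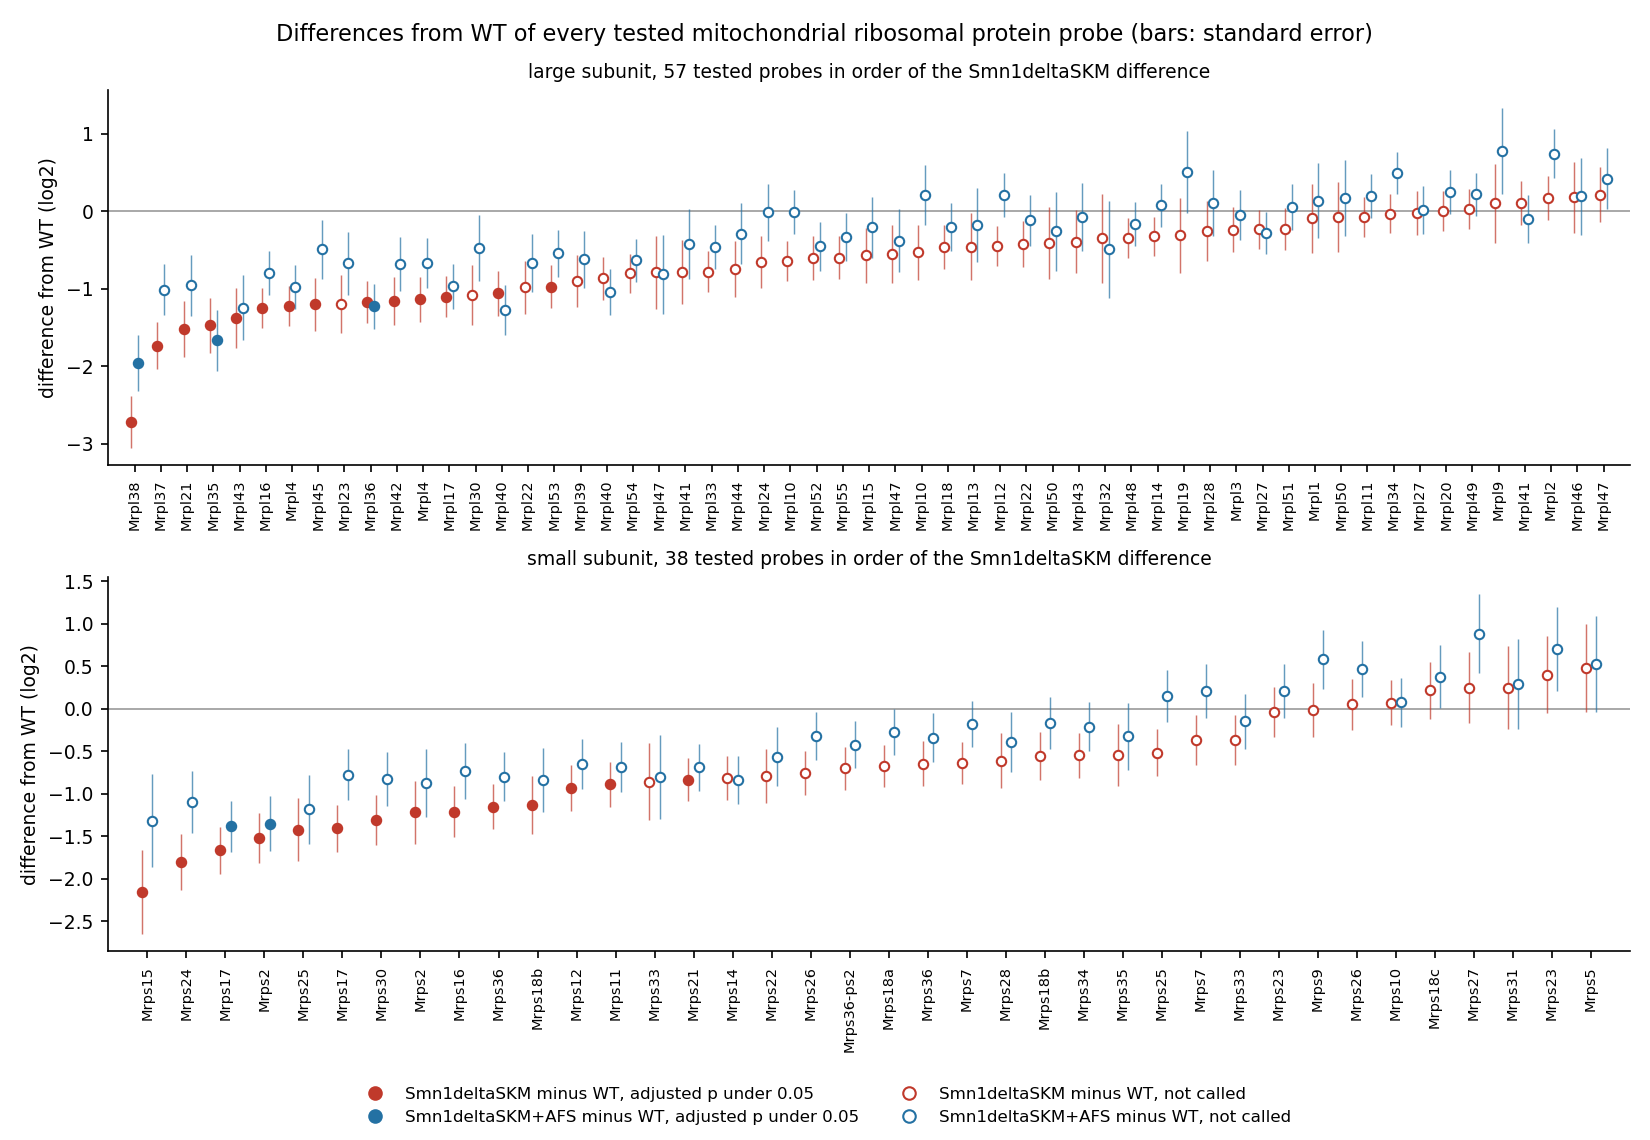
Difference from WT (log2, bars are standard errors from limma on mouse means) for each of the 95 tested probes, in order of the Smn1deltaSKM difference, with filled symbols for an adjusted p under 0.05. Filled red symbols occur only below 0, and the blue Smn1deltaSKM+AFS values lie nearer 0 than the red ones for most probes, with 5 filled.

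By descent, the probes for bacterial homologs of the large subunit had a median difference of -0.50 with 7 of 36 called, and those for mitochondria-specific large subunit proteins -0.79 with 7 of 21 called. In the small subunit the order was the other way round, with -0.86 and 11 of 20 called for the bacterial homologs and -0.52 and 1 of 13 called for the mitochondria-specific proteins. The called shares were 19.4% and 33.3% in the large and 55% and 7.69% in the small subunit, against 14.1% of all tested probes called lower. The differences between these classes were not tested. Mrps30 and Mrps18a carry small subunit names although their proteins sit in the large subunit, and they gave -1.31 (called) and -0.67 (not called).

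The disease list held 11 tested genes in which mutations are known to cause oxidative phosphorylation deficiency in people. It need not hold every such gene, and the counts here are those of the list. Of the 14 tested probes of the listed genes, 13 were below WT and 3 were called: both Mrps2 probes and Mrps16 (-1.21, SE 0.30, adjusted p = 0.0272). The called share was 21.4%, against 21.5% of all tested probes called in either direction and 14.1% called lower. Mrps16 ran from 2.92 to 3.74 in WT fibers with a median of 3.49 and from 1.85 to 2.51 in Smn1deltaSKM fibers with a median of 2.23. Its groups did not overlap.

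The other probes of these disease genes did not pass the test. Mrps14 gave -0.82, Mrps22 -0.79, Mrpl44 -0.75, Mrps28 -0.61, Mrps34 -0.55, Mrpl12 -0.44 and Mrpl3 -0.24. Mrps7 gave -0.64 and -0.37, and Mrps23 gave 0.40 and -0.04.

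The other parts of the mitochondrial translation apparatus were also below WT in their medians. Beside the counts here and in the next paragraph, 14.1% of all tested probes were called lower. Ribosomal proteins that lack the Mrpl or Mrps name had a median of -0.74, with 3 of 9 probes called lower, among them Ptcd3 (-1.33) and Mrp63 (-0.94). Assembly factors had a median of -0.55 with 6 of 20 called lower, led by the pseudouridine synthase Rpusd3 (-1.63) and the ribosomal RNA chaperone Eral1 (-1.52). All 11 translation factor probes were below WT (median -0.90, 6 called), including Lrpprc (-1.93), which stabilises mitochondrial messenger RNA, and Gfm2 (-1.58), which recycles the ribosome.

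Transcripts of the mitochondrial genome, of nuclear respiratory complex subunits and of cytosolic ribosomal proteins also had medians below WT. The 6 probes of the mitochondrial genome had a median of -0.95 with 4 called, among them ND6 (-1.04) and ND4L (-0.98). Nuclear subunits of the respiratory complexes had a median of -0.59 with 22 of 106 called lower and none higher, led by Ndufs5 (-1.56) and Ndufb4 (-1.44). Cytosolic ribosomal proteins had a median of -0.62, with 26 of 171 called lower, Rps10 (-1.95) the farthest, and 2 called higher, Rpl10l (1.47) among them. The medians of both mitochondrial subunits therefore fell within the range of these lists, from -0.95 to -0.55, and nothing was particular to the mitochondrial ribosome by this measure.

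**Figure D5:**
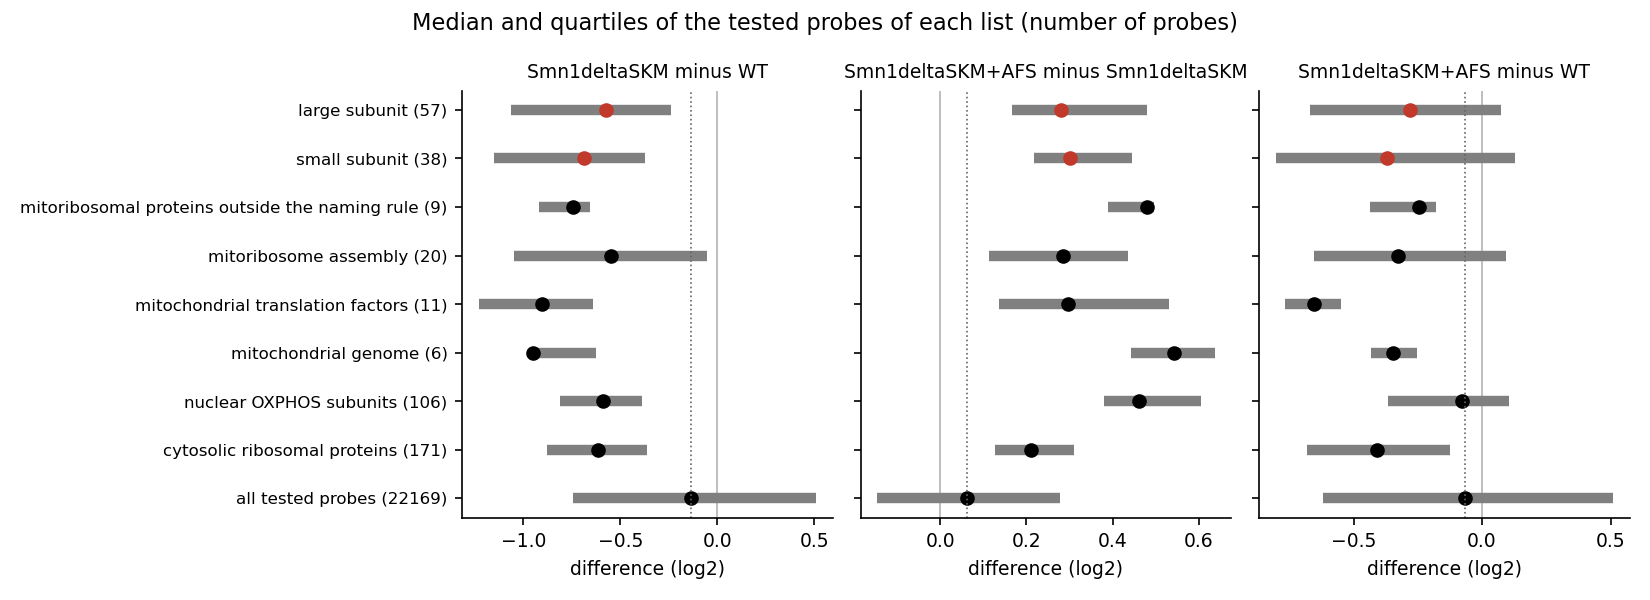
Median (points) and quartiles (bars) of the differences of the tested probes in each list, with the number of probes in brackets, for the 3 comparisons on the log2 scale, and the median of all tested probes as a dotted line. In Smn1deltaSKM against WT the subunit medians of -0.57 and -0.69 lie among the other translation and respiratory lists, and in Smn1deltaSKM+AFS against Smn1deltaSKM all list medians lie above 0.06, the median of all probes.

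The comparison of Smn1deltaSKM+AFS with Smn1deltaSKM asked whether transcripts changed after stem cell transplantation. No member passed the test, and neither did any other probe of the array (0% called). At an unadjusted p of 0.05, 6 member probes were higher and none lower, against 2.67% of all probes higher and 0.546% lower. With fibers as replicates no member was called, and 26 probes of the whole array (0.117%) were. Of the 95 members 86 were above Smn1deltaSKM, against 57.7% of all probes, and the median difference was 0.28 for the large and 0.30 for the small subunit, against 0.06 over all probes. Both treated mice lay above all 3 untreated mice for 35 of the 95 probes (36.8%), against 12.3% of all probes. This comparison shares its Smn1deltaSKM mice with the comparison against WT, so that a low Smn1deltaSKM value enters both.

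The members with the largest differences were Mrpl19 (0.81), Mrpl38 (0.76) and Mrpl10 (0.74) in the large subunit and Mrps15 (0.84), Mrps24 (0.70) and an Mrps25 probe (0.66) in the small subunit, each with an adjusted p of 0.9999 by limma. Mrpl10 belongs to the base of the stalk that recruits translation factors. Mrpl19 ran from -2.76 to -0.47 in the 11 Smn1deltaSKM fibers with a value (median -1.66) and from -2.49 to 0.32 in the 7 treated fibers (median -0.83), and these ranges overlapped. The Mrpl10 difference came from a probe with values in 5 treated fibers, of which fiber 3 stood at 3.05 and the next highest at 0.81. Mrps24 ran from 0.86 to 2.34 in treated fibers with a median of 1.38, and its treated mice stood at 1.83 and 1.01 against 1.00, 0.69 and 0.45 in untreated mice. It was the only member called with fibers as replicates and scan day as a random block (adjusted p = 0.0479, among 303 probes in all).

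The difference did not hold within scan days alike. On day 2, which held 9 Smn1deltaSKM and 5 Smn1deltaSKM+AFS fibers, the medians were 0.46 for the large and 0.39 for the small subunit. On day 1, with 3 Smn1deltaSKM fibers of 1 mouse and 2 Smn1deltaSKM+AFS fibers of 1 mouse, they were -0.26 and 0.04. One slide held a fiber of each group, number 4 in both, and there the treated fiber differed by 0.02 for the large and by -0.02 for the small subunit, against 0.12 over all probes. On that slide 49 of 93 member probes were higher in the treated fiber, against 100 of 106 nuclear respiratory complex probes, whose median was 0.32.

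Across all mice the respiratory complex list stood at a larger difference than either subunit of the mitochondrial ribosome and than the cytosolic ribosomal proteins, but not than the ribosomal proteins outside the naming rule. Its 106 probes had a median of 0.46 in Smn1deltaSKM+AFS against Smn1deltaSKM, 105 of them were above 0, and none was called. The mitochondrial genome gave 0.54, the ribosomal proteins outside the naming rule 0.48, the translation factors 0.30, the assembly factors 0.29 and the cytosolic ribosomal proteins 0.21. The differences between lists were not tested.

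Against WT, Smn1deltaSKM+AFS fibers had 5 member probes called (5.26%), all lower, against 7.33% of all probes called and 4.34% called lower. These were Mrpl38 (-1.95, SE 0.36, adjusted p = 0.0266), Mrpl35 (-1.67, SE 0.39, adjusted p = 0.0438), Mrpl36 (-1.23, SE 0.30), Mrps17 on 1 of its probes (-1.38, SE 0.30, adjusted p = 0.0375) and Mrps2 on 1 of its probes (-1.35, SE 0.32, adjusted p = 0.0449). All 5 were also among the probes called in Smn1deltaSKM against WT, a comparison that uses the same WT mice. The count was 0 without either WT mouse (0% of all probes called lower) and without the first or the second treated mouse (0% and 0.144%). It was 1 without the second or the third Smn1deltaSKM mouse (1.95% and 1.65%) and 20, of which 18 lower, without the first (16.3%), since all mice contribute to the estimate of the spread. With fibers as replicates 30 members were called lower and 1 higher (23.0% of all probes lower), and with the mouse as a random block 15 were called, all lower (12.2%).

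Their fibers showed what the calls rest on. For Mrpl35 the 7 treated fibers ran from -2.28 to -0.86 (median -1.46), all below the lowest WT fiber and across the range of the untreated fibers. For Mrpl36, homolog of the smallest bacterial large subunit protein, the treated fibers ran from 0.31 to 1.76 (median 1.70), the untreated from 0.98 to 1.92 (median 1.55) and the WT fibers from 1.95 to 3.15 (median 2.73). Mrpl36 was named after its values were seen, to complete the 5.

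The median difference from WT was -0.28 for the large and -0.37 for the small subunit, against -0.06 over all tested probes. By probe, the mean of the treated mice lay between the means of the untreated and the WT mice for 58 of the 95 members, above WT for 28 and below the untreated mice for 9. The treated mice stood at -0.26 and -0.31 for the large subunit median and at -0.32 and -0.43 for the small one. For the large subunit these values lie next to that of the first untreated mouse, -0.31, and for the small subunit both lie above all 3 untreated mice.

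The promoters of these genes were read for short sequences bound by regulators of nuclear genes for mitochondrial proteins. The window ran from 250 bases before to 50 bases after the annotated start in RefSeq on GRCm38.p6, and 66 of the 76 tested genes had an entry. The motif of NRF1 (GCGCA and GCGC with any 1 base between) was present on either strand in 18.2% of the member genes and 5.19% of all 27025 genes, CCGGAAGT of GABPA in 18.2% and 4.31%, and GATGGCGG of YY1 in 7.58% and 1.97%. GGGCGG, the core of SP1 sites, was present in 48.5% and 38.2%. Among genes with a called probe 13% held the NRF1 and 4.35% the GABPA letters, against 20.9% and 25.6% of member genes without one. The YY1 letters went the other way, at 13% and 4.65%, as did GGGCGG, at 56.5% and 44.2%. These shares were not tested against each other.

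Stretches around such matches in called genes, wholly before the start, are printed to show how they lie. Each is 5′ to 3′ on the strand of the gene, with the matching letters in capitals, and a match is a description of letters and not a measured binding site. The stretches end 1 base before the start in Mrpl43, 17 in Mrpl45, 28 in Mrpl17, 90 in Mrps11 and 70 in Mrps21. The Mrpl45 stretch holds the letters 2 times, and another match lies after the start of that gene, at base 15. In Mrps11 the YY1 letters and in Mrps21 the NRF1 letters lie on the opposite strand, so that the capitals there show their reverse complement.
Mrpl43, GABPA: acaaccccggaaCCGGAAGTcacc
Mrpl45, NRF1: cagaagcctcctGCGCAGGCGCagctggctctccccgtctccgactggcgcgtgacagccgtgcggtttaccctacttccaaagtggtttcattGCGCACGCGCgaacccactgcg
Mrpl17, NRF1: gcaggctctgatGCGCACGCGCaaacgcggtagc
Mrps11, YY1: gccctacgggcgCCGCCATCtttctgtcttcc
Mrps21, NRF1: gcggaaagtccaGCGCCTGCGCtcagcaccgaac
The differences of these genes in Smn1deltaSKM against WT were -1.38, -1.20, -1.10, -0.89 and -0.84, in the order printed.

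Values were too few for a test on 7 probes, and 5 of them are further probes of genes that were tested. Of the remaining pair, Mrps6 had values in 4 WT, 7 Smn1deltaSKM and 3 Smn1deltaSKM+AFS fibers, and the pseudogene probe Mrps36-ps1 in 1, 2 and 0. A second Mrpl21 probe was not well above background on any array. No member probe was saturated.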

How the data were processed

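RNA of single myofibers was amplified in 18 cycles, labelled with Cy3 and hybridised to SurePrint G3 Mouse 8x60K arrays, per the labels. The deposited intensity values of each array came from Agilent Feature Extraction 10.7.3.1 (submitters' processing notes and file headers), background-subtracted and detrended within the array by the authors' scanner software. A table of the authors' values, intensities normalized between arrays, served as an alternative.

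Processed intensities were put on the log2 scale relative to the array's 75th percentile. Spots not found, not well above background or non-uniform were treated as missing, and means were taken over the spots of a probe and over the fibers of a mouse. The fit by limma 3.58.1 (R 4.3.3) used the probes measured on 21 or more of the 27 arrays, with Benjamini-Hochberg adjustment over all 22169 probes and calls at 0.05. The methods' SAM over fibers was replaced by mice as replicates, with fibers as an alternative. The number of arrays and mice, 7 in all, limits the precision, and p-values measure the spread between these mice. The script was tested on simulated data.

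Members, lists and named genes were chosen with earlier results of these data known. Named with values were the 8 large and 6 small subunit probes farthest from WT among those called, the 3 of each subunit farthest apart between treated and untreated mice, the 2 farthest called members of each subunit in treated mice against WT, genes with discordant probes, the disease list, the proteins with small subunit names in the large subunit and, from other lists, the 2 farthest called probes. Gene names are those of the array, and 76 of 78 matched the RefSeq gene table. Group, mouse and fiber numbers are those of the labels. One probe sequence is not reported here.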

Additional observations from a re-analysis of the deposited data

Results flagged for a closer look

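In 68 groups of fibers examined for a value far from its neighbours, 13 had one. For independent groups chance alone was taken to give about 1 in 20. These groups share fibers and are not independent, so an excess over chance was not tested. WT fiber 8 was the lowest WT fiber by a wide gap for the large subunit median (-0.62, next -0.09) and the small subunit median (-0.59, next -0.07). The same fiber stood apart from the other WT fibers for Mrpl35 (-0.16, next 0.19), Mrpl16 (2.84, next 3.42), Mrps15 (3.73, next 4.47), Mrps24 (1.66, next 2.36), Mrps14 (1.47, next 2.20) and Mrps30 (0.82, next 1.24). WT fiber 2 was the far lowest for an Mrpl4 probe (2.99, next 3.92) and an Mrps23 probe (2.80, next 4.66).

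Among Smn1deltaSKM+AFS fibers, fiber 4 was the far highest for the dim Mrps25 probe (-1.83, next -2.38). Fiber 3 was the far highest for Mrpl10 (3.05, next 0.81, with 5 values) and Mrps30 (1.78, next 0.68). All these values stand in the means of the report. Leaving out WT fiber 8 raised the number of called members in Smn1deltaSKM against WT from 28 to 36. The share of all probes called lower rose as well, from 14.1% to 17.2%.

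An Mrpl39 probe that entered no comparison, because too few arrays gave a value, had a value in 4 of 12 Smn1deltaSKM fibers and in 0 of 8 WT and 0 of 7 Smn1deltaSKM+AFS fibers. It was not tested, and no fold is given because most Smn1deltaSKM arrays gave no value either.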

How the results depend on the processing

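The 28 called members stayed below WT in Smn1deltaSKM under every alternative that tested them. With 1 mouse left out this could not come out otherwise, since the mice did not overlap for these probes. The other alternatives reuse the arrays in which these probes were chosen as lower, so they add no support either. The number of called members was 12 under quantile normalization and 13 with the authors' value table. It was 15 both with arrays centred on the median of common probes and with no filter. With slide as a random block it was 13, with fibers as replicates 53 (32.5% of all probes lower), and with 1 Smn1deltaSKM mouse left out 8 to 52. Where a count here or against WT in treated mice has no share over all probes beside it, its change cannot be told apart from one over the whole array. Centring moved the median of all probes from -0.14 to 0.08 and that of the members from -0.64 to -0.42. Against WT, Smn1deltaSKM+AFS had 1 called member under quantile normalization, with the authors' table, with centring and with no filter, 15 with mouse as a random block, 31 with fibers as replicates, 9 of these at 0.001, 8 without the fibers of scan day 1 (an alternative chosen after seeing the data, as was leaving out WT fiber 8) and 0 to 20 with 1 mouse left out; of these calls, 1 of the 31 and 2 of the 20 were higher. In Smn1deltaSKM+AFS against Smn1deltaSKM the count was 1 with scan day as a random block and 0 in each of the other fits.

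The large subunit median in Smn1deltaSKM against WT was -0.37 under quantile normalization, -0.33 with normexp, -0.35 with centring and -0.80 to -0.45 with 1 mouse left out. The small subunit gave -0.45, -0.44 and -0.47 for these settings, -0.42 with the authors' table, -0.59 without scan day 1, -0.82 without WT fiber 8 and -0.71 to -0.65 with 1 mouse left out. In Smn1deltaSKM+AFS against Smn1deltaSKM the large subunit gave -0.26 within scan day 1, 0.46 within day 2 and without day 1, and 0.19 to 0.40 with 1 mouse left out. The small subunit gave 0.22 (quantile), 0.18 (normexp), 0.19 (authors' table), 0.21 (centring), 0.19 (slide block), 0.040 within scan day 1, 0.39 within day 2 and without day 1, and 0.24 to 0.42 with 1 mouse left out. Against WT it gave -0.25 (quantile), -0.25 (normexp), -0.27 (authors' table), -0.24 (centring), -0.47 (slide block), -0.22 without scan day 1, -0.44 without WT fiber 8 and -0.43 to -0.32 with 1 mouse left out. The causes were not tested.

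Mouse numbers were not taken to pair the mice. The correlations of same-numbered mice, over deviations from the group mean, ran from -0.05 to 0.30. They cannot decide whether the mice are paired, because the deviations in a group of 2 mice mirror each other. With the number as a replicate block, 12 members were called in Smn1deltaSKM against WT, 0 in Smn1deltaSKM+AFS against Smn1deltaSKM and 2 in Smn1deltaSKM+AFS against WT. These counts have no share over all probes beside them, so their change cannot be told apart from one over the whole array.

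Of the named probes, 3 turned in Smn1deltaSKM against WT, and none of them was called. An Mrps23 probe at -0.04 gave 0.30 (quantile), 0.45 (normexp), 0.30 (authors' table), 0.17 (centring), 0.0097 (slide block), 0.0012 without scan day 1, and 0.26 and 0.030 without the second mouse of WT or Smn1deltaSKM. The other, at 0.40, gave -0.049 to 0.73 with 1 mouse left out, the former without the first Smn1deltaSKM mouse, and Mrps28 gave 0.026 with normexp. Mrpl19 in Smn1deltaSKM+AFS against Smn1deltaSKM gave -0.47 within scan day 1. Signal over background limits the values of dim probes, whose means rest on fewer fibers.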
